A study of Populus tremula x Populus alba with 2 samples.

Results

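The primary wall cellulose synthases described here are 10 poplar genes, chosen by identifier as the copies of 3 subunit classes. The classes are CesA1 with 2 copies, CesA3 with 4 copies and CesA6 with 4 copies, and the 10 genes are among 41335 poplar genes in the expression table. Cellulose is made at the plasma membrane by a rosette-shaped complex, in which different CesA proteins each occupy their own positions and draw on UDP-glucose to extend glucan chains that assemble into microfibrils. In Arabidopsis, CESA1, CESA3 and CESA6-type proteins build the complex of growing cells with primary walls, and CESA1 and CESA3 are each needed, whereas the CESA6 position can be filled by several related proteins. A separate set of classes serves the secondary walls of wood. In a stem, transcripts of the primary wall classes are therefore usually read as coming from cells that are still dividing or enlarging, such as those of the cambial zone.

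RNA was taken from young stems of 2-month-old hybrid aspen (Populus tremula x Populus alba), grown in a greenhouse after coppicing. The MOMT4 library came from the transgenic line MOMT4-0, which expresses MOMT4, an engineered monolignol 4-O-methyltransferase, under the bean PAL2 promoter that is active early in xylem differentiation. The control library came from WT plants. For each library about 100 mg of internodes 1 to 15 with the bark removed was pooled from 2 to 3 plants, so that 1 library stands for 1 transgenic line and 1 library for the control. No spread between plants can be given, no difference between the lines was tested, and fewer cells of a type cannot be told apart from less RNA per cell.

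The MOMT4 transcript is taken to be the single row of the table that is not a poplar gene, which had 1222 RPKM (reads scaled to exon length and to the mapped reads of the library) under the MOMT4 heading and 4.79 RPKM under the WT heading. RPKM summed over poplar genes to 660440 in MOMT4-0 and 669542 in the control. The most frequent ratio of a gene's control value to its MOMT4-0 value was 1.081, shared by 1013 rows. This shared value was taken to reflect the read totals of the libraries and is not a typical difference in expression. Over poplar genes averaging 1 RPKM or more, the median log2 ratio of MOMT4-0 over control was -0.0057. The reads behind the cellulose synthase values were not recovered, so their counting error is not known. The table pairs its identifiers with no names, and markers of the stem's cell types were not checked. Other cellulose genes, including those of the secondary wall classes, were not used as a comparison.

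All 3 subunit classes were well expressed. None of the 10 genes was 2-fold apart between the lines, where 1.77% of poplar genes averaging 1 RPKM or more were. At that rate a count of 0 among 10 genes does not set them apart. Summed over its copies, CesA3 was the most abundant class in both libraries, with 258.7 RPKM in MOMT4-0 and 220.0 RPKM in the control. CesA1 followed with 202.6 RPKM in MOMT4-0 and 192.7 RPKM in the control. CesA6 had 177.6 RPKM in MOMT4-0 and 148.9 RPKM in the control. The sum of all 10 genes was 638.9 RPKM in MOMT4-0 and 561.5 RPKM in the control, a ratio of 1.14, which is 0.0967% of the poplar RPKM in MOMT4-0 and 0.0839% in the control. An expression filter that asked for 1 RPKM or more on average was passed by 22944 poplar genes and by all 10 cellulose synthases. The lowest of the 10, Potri.013G019800, ranked 5344 among these genes in MOMT4-0 and 6341 in the control.

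**Figure D1:**
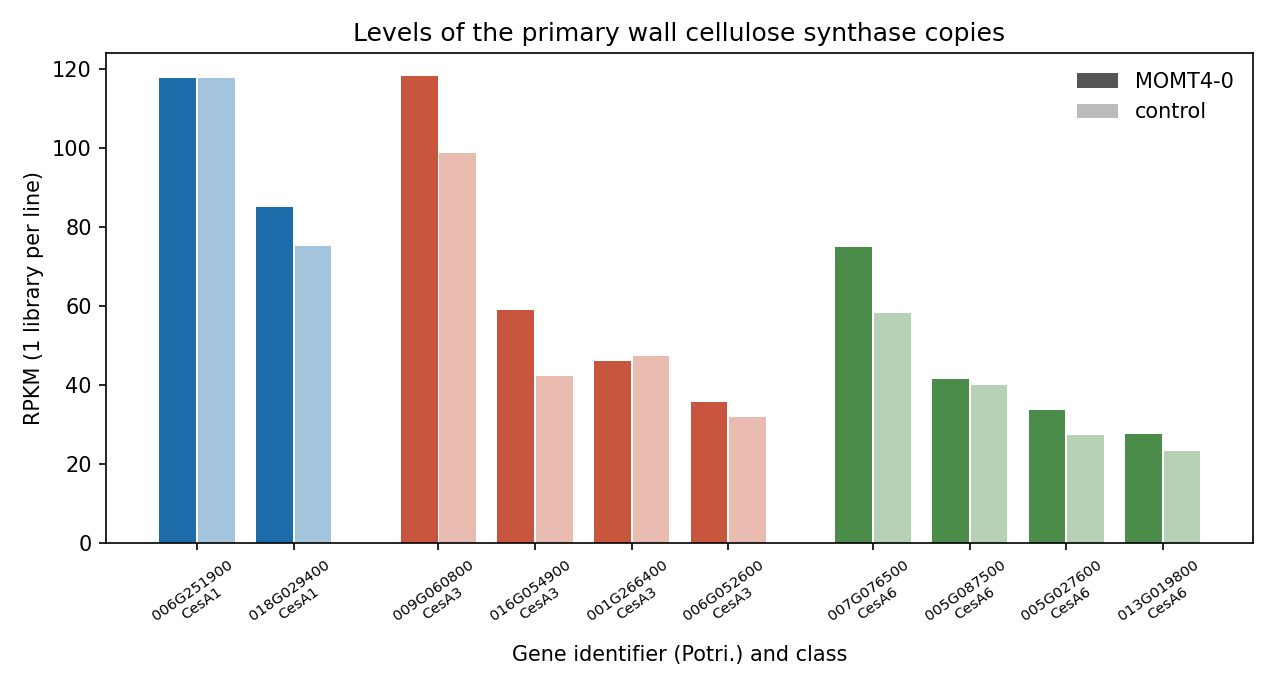
Bars give the RPKM of each of the 10 copies in the MOMT4-0 library (full colour) and the control library (pale), 1 library per line and therefore without error bars, grouped by subunit class and ordered within it by mean. The CesA1 copies and Potri.009G060800 stand highest. In MOMT4-0 the highest copy is 1.38 times the lowest of 2 in CesA1. It is 3.30 times the lowest of 4 in CesA3 and 2.71 times the lowest of 4 in CesA6.

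CesA1 has 2 copies, whereas CesA3 and CesA6 have 4 each, so shares and ranges of copies cannot be set against each other between classes. CesA1, the class that in Arabidopsis has no substitute in the primary wall complex, drew on both of its copies. Potri.006G251900, on chromosome 6 from 25754709 to 25761940, had 117.5 RPKM in MOMT4-0 and 117.5 RPKM in the control. Potri.018G029400, on chromosome 18 from 2307645 to 2314750, had 85.1 RPKM in MOMT4-0 and 75.2 RPKM in the control. The first copy thus exceeded the second 1.38-fold in MOMT4-0 and 1.56-fold in the control and supplied 58.0% of the class sum in MOMT4-0 and 61.0% in the control. Per copy, CesA1 was the most abundant class, with a mean of 101.3 RPKM in MOMT4-0 and 96.3 RPKM in the control. The mean per copy was 64.7 RPKM in MOMT4-0 and 55.0 RPKM in the control for CesA3, and 44.4 RPKM in MOMT4-0 and 37.2 RPKM in the control for CesA6.

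In CesA3, the other class without a substitute in Arabidopsis, a single copy led. Potri.009G060800, on chromosome 9 from 6284186 to 6291553, had 118.0 RPKM in MOMT4-0 and 98.6 RPKM in the control, and made up 45.6% of the class in MOMT4-0 and 44.8% in the control. Potri.016G054900, on chromosome 16 from 3587792 to 3594377, had 58.9 RPKM in MOMT4-0 and 42.2 RPKM in the control. Potri.001G266400, on chromosome 1 from 27424910 to 27431252, had 46.0 RPKM in MOMT4-0 and 47.4 RPKM in the control, so that it was the third copy of the class in MOMT4-0 and the second in the control. Potri.006G052600, on chromosome 6 from 3768788 to 3776411, was the lowest, with 35.8 RPKM in MOMT4-0 and 31.8 RPKM in the control. The leading copy was 3.30 times the lowest in MOMT4-0 and 3.10 times in the control.

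CesA6, the class with interchangeable members in Arabidopsis, also had 1 leading copy. Potri.007G076500, on chromosome 7 from 10034644 to 10042192, had 74.9 RPKM in MOMT4-0 and 58.2 RPKM in the control, or 42.2% of the class in MOMT4-0 and 39.1% in the control. Potri.005G087500, on chromosome 5 from 6545260 to 6552941, had 41.4 RPKM in MOMT4-0 and 40.0 RPKM in the control. The leading copy exceeded it 1.81-fold in MOMT4-0 and 1.45-fold in the control. In CesA1 the first copy exceeded the second 1.38-fold in MOMT4-0 and 1.56-fold in the control. A leading copy was therefore not particular to CesA3 and CesA6. The remaining CesA6 copies were lower still. Potri.005G027600, on chromosome 5 from 2020712 to 2027257, had 33.6 RPKM in MOMT4-0 and 27.3 RPKM in the control, and Potri.013G019800, on chromosome 13 from 1295349 to 1302060, had 27.7 RPKM in MOMT4-0 and 23.4 RPKM in the control. No class rested on 1 copy alone, and the least abundant copy of each still gave at least 13.8% of its class sum in both libraries.

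**Figure D2:**
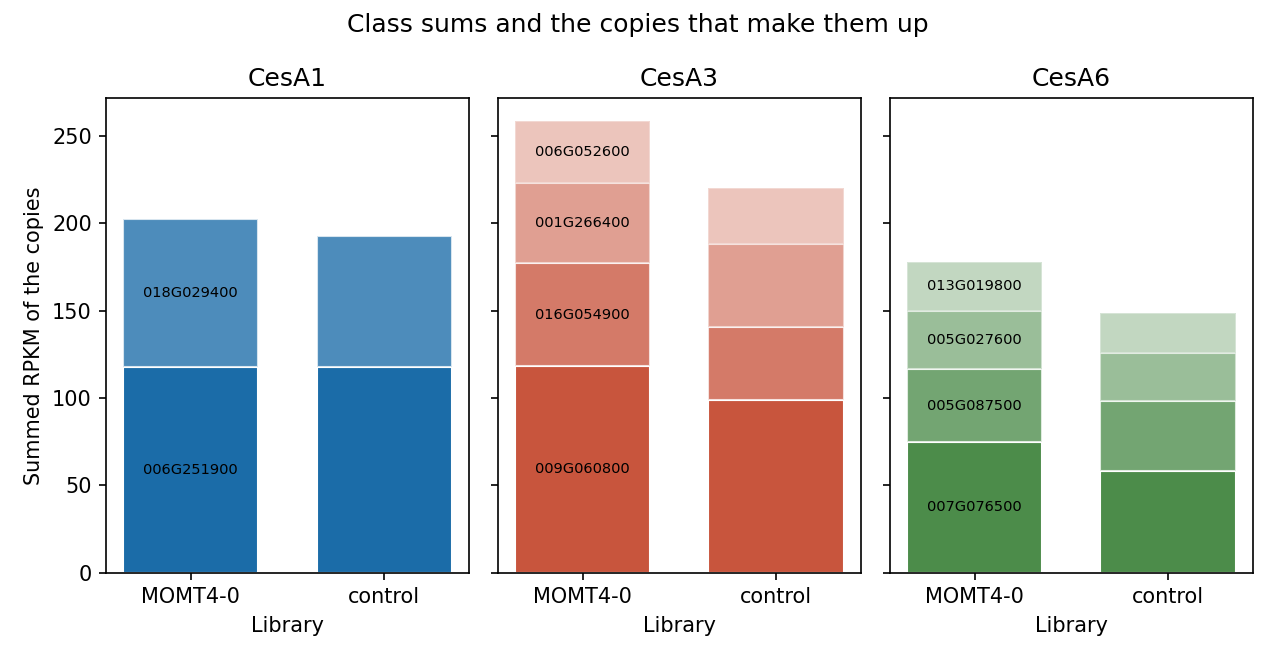
Stacked bars give the summed RPKM of each subunit class in the MOMT4-0 library (left bar) and the control library (right bar), with 1 segment per copy, the most abundant at the bottom. The CesA3 sum is the highest and the CesA6 sum the lowest in both libraries. In MOMT4-0 the leading copy gives 58.0% of CesA1 (2 copies), 45.6% of CesA3 (4 copies) and 42.2% of CesA6 (4 copies). Shares of classes with different numbers of copies cannot be set against each other.

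The order of the 10 genes was nearly the same in both libraries. Of the 45 pairs that the genes form, 2 stood in the other order. Potri.009G060800 was 1.00 times Potri.006G251900 in MOMT4-0 and 0.839 times in the control, and Potri.016G054900 was 1.28 times Potri.001G266400 in MOMT4-0 and 0.891 times in the control. With 1 library per line, the members of these pairs cannot be ordered. Between the class sums, CesA3 was 1.28 times CesA1 in MOMT4-0 and 1.14 times in the control. CesA1 was 1.14 times CesA6 in MOMT4-0 and 1.29 times in the control. CesA3 was 1.46 times CesA6 in MOMT4-0 and 1.48 times in the control.

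The comparison of the lines asks whether the expression of MOMT4 went along with altered transcript levels of cell wall genes. Each log2 ratio sets MOMT4-0 over control with 1 RPKM added to both values, which slightly understates a difference. Of the 10 genes, 0 were at least 2-fold apart, where 1.77% of all genes past the filter were, and 0.613% of the other genes of like level. At such rates a count of 0 among 10 genes does not set them apart. None was 1.5-fold apart either, where 7.07% of all genes were. The log2 ratios of the 10 genes ran from -0.04 to 0.47 with a median of 0.20, whereas the median over all genes past the filter was -0.0057 and the central 95% of them lay between -0.63 and 0.71. The ratio was above 0 for 8 of the 10 genes, where this held for 49.1% of all genes past the filter and for 47.9% of the 4894 other genes between 25.5 and 117.5 RPKM, the range of the 10 genes' means. The 10 genes share the same 2 libraries and belong to 1 family, so their ratios are not independent of each other.

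Each gene was then set beside the 500 other genes nearest to it in mean RPKM, whose ratios show how far genes of that level differed between these libraries. Potri.016G054900 of CesA3 had the highest ratio, 1.39-fold or a log2 ratio of 0.47, at the 97.6th percentile of its 500 neighbours, whose central 95% reached from -0.39 to 0.47. Potri.007G076500, the leading CesA6 copy, was 1.29-fold higher in MOMT4-0 with a log2 ratio of 0.36, also at the 97.6th percentile, and its neighbours reached from -0.38 to 0.35. These 2 genes lay at the upper edge of what genes of their level showed, with 12 of 500 neighbours at or above each.

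The other CesA6 copies were not alike in this. Potri.005G027600 had a log2 ratio of 0.29 (92.0th percentile) and Potri.013G019800 one of 0.23 (89.6th percentile), while Potri.005G087500 had 0.05 (58.8th percentile). In CesA3, the leading copy Potri.009G060800 had a log2 ratio of 0.26 (90.4th percentile) and Potri.006G052600 one of 0.17 (81.8th percentile). Potri.001G266400 had -0.04 and stood at the 41.0th percentile, as the gene with the lowest ratio of the 10. In CesA1, Potri.018G029400 had a log2 ratio of 0.18 (83.0th percentile), and Potri.006G251900, the more abundant copy, stood at the 52.0th percentile, its level being 117.5 RPKM in both libraries. All but Potri.016G054900 and Potri.007G076500 lay within the central 95% of their neighbours.

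**Figure D3:**
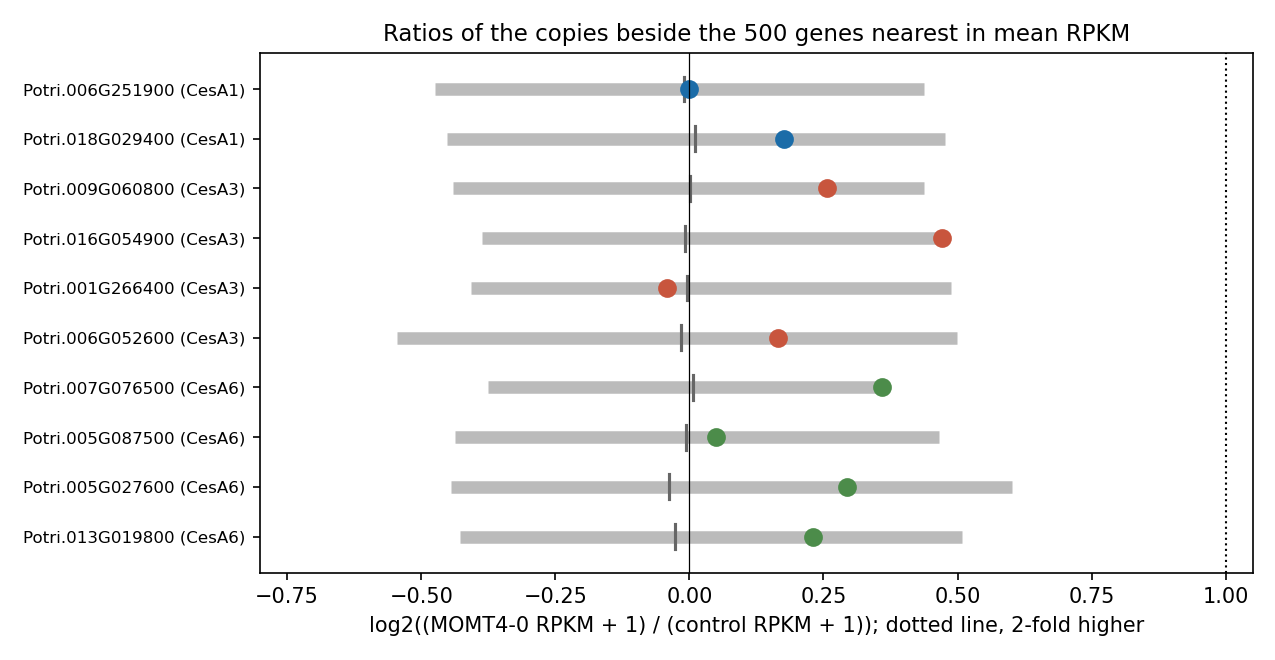
Points give the log2 ratio of MOMT4-0 over control for each of the 10 genes, grey bars the central 95% of the 500 genes nearest in mean RPKM and dark ticks their median. All 10 points lie left of the dotted line at 2-fold higher, and those of Potri.016G054900 and Potri.007G076500, at 0.47 and 0.36, stand at the upper ends of their bars.

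Between the classes, the summed RPKM gave log2 ratios of 0.25 for CesA6, 0.23 for CesA3 and 0.07 for CesA1. As shares of the sum of all 10 genes, CesA1 held 31.7% in MOMT4-0 and 34.3% in the control, CesA3 held 40.5% in MOMT4-0 and 39.2% in the control, and CesA6 held 27.8% in MOMT4-0 and 26.5% in the control. The CesA1 difference came from Potri.018G029400, since the class has a log2 ratio of -0.00011 without that copy and 0.18 without the other. Without Potri.016G054900 the CesA3 sum had a log2 ratio of 0.17, and without Potri.007G076500 the CesA6 sum had one of 0.18, so that both sums were higher in MOMT4-0 without their most different copy. Whether the classes differed from each other in ratio was not tested.

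In position the 10 genes were scattered over 8 chromosomes, with a pair each on chromosomes 5 and 6 that lies far apart. Each spans 6343 to 7682 bases, introns included, and no other row of the table overlaps any of them. The nearest genes on either side, 20 in all, lie 110 to 22813 bases away. Of these, 5 were listed at 0 in both libraries and 13 passed the expression filter, 7 with a ratio above 0 and 6 below, with a median log2 ratio of 0.09. Of these 13, 2 were at least 2-fold apart, in opposite directions, where 1.77% of all genes past the filter were. Potri.013G019700, beside Potri.013G019800, had 9.03 RPKM in MOMT4-0 and was listed at 0 in the control. The other, Potri.006G052500, is the closest neighbour of all and lies 110 bases from Potri.006G052600. It had 0.292 RPKM in MOMT4-0 and 1.89 RPKM in the control, a mean of 1.09 RPKM that barely passed the filter. Next to Potri.016G054900, the gene with the highest ratio, Potri.016G054800 had 2.93 RPKM in MOMT4-0 and 3.24 RPKM in the control, and Potri.016G055000 had 478.6 RPKM in MOMT4-0 and 493.6 RPKM in the control, so neither neighbour stood higher in MOMT4-0. Both neighbours of Potri.007G076500 were listed at 0. Beside Potri.018G029400, Potri.018G029300 had 15.4 RPKM in MOMT4-0 and 9.35 RPKM in the control. On its other side, Potri.018G029500 had 5.48 RPKM in MOMT4-0 and 6.58 RPKM in the control. Whether the 10 genes and their neighbours varied together was not tested.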

How the data were processed

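The deposited table gives 1 RPKM value per gene and library. The authors aligned single-end reads of strand-specific libraries with TopHat, allowing 1 mismatch, to the P. trichocarpa genome from PlantGDB, a different species from the hybrid sequenced, then derived read counts for each gene and scaled them by exon length and mapped reads (RPKM). The assignment of reads shared by copies, the program versions and the build are not given in the sources used here, so levels of copies may be shifted by reads lost to mismatches or shared between copies; neither was tested. The columns were taken by their headings (MOMT4, WT), since these fit the titles of the samples, although the sample descriptions give the short codes the other way round. The row taken to be the MOMT4 transcript goes with the headings, with 1222 RPKM under MOMT4 and 4.79 RPKM under WT. The table also holds the authors' log2 ratios, test statistics, p and q values, which were not used.

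Positions have 1 added to the table's starts. Log2 ratios used a pseudocount of 1 RPKM, and poplar genes averaging 1 RPKM or more were kept, without the 2 rows marked as failed. Genes at least 2-fold apart were counted as a rule of size, and each member was ranked among the 500 genes nearest in mean RPKM. With 1 library per group no test was made. All 10 genes are named. The members and lists were chosen with earlier results of these data known. Lists and markers that needed annotation and counting intervals that needed exon lengths were not analysed here, and no sequences were used. The planned comparison with secondary wall CesA genes, listed by identifier, was not run either. Alternatives were a pseudocount of 0.1 RPKM, no filter or an average of 5 RPKM or more, centring, a limit of 1.5-fold, the leading copies alone, no pseudocount on sums, and 200 or 1000 nearest genes. The steps were tested on simulated data with planted changes larger than any that the 10 genes showed. That test therefore does not bear on ratios as small as theirs. Computation used NumPy 2.4.6, SciPy 1.17.1 and pandas 2.3.3 under Python 3.11.15, and plots matplotlib 3.10.9.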

Additional observations from a re-analysis of the deposited data

How the results depend on the processing

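No paired analysis was possible because there is a single library per line, so that none could be left out. The number of the 10 genes at least 2-fold apart was 0 under each alternative of pseudocount, filter, centring and limit. Under the main settings 1.77% of all genes past the filter were 2-fold apart and 7.07% were 1.5-fold apart. At such rates 0 of 10 does not set the genes apart. The median log2 ratio of the 10 genes lay between 0.20 and 0.22. Of the 10, 8 or 9 were higher in MOMT4-0, where 49.1% of all genes past the filter were under the main settings. The ninth was Potri.006G251900, whose log2 ratio was -0.00011 and turned positive after centring or scaling to equal sums of RPKM. The CesA1 sum depended on its copies, with a log2 ratio of -0.00011 from the leading copy alone. The CesA3 sum lay between 0.17 and 0.30 and the CesA6 sum between 0.18 and 0.36 under all settings run. With 200 or 1000 nearest genes, Potri.016G054900 stood at the 96.5th and 96.9th percentile and Potri.007G076500 at the 97.5th and 96.8th, so their place at the upper edge was kept while their side of the 97.5% limit depended on the number of genes. Scaling to equal sums and leaving out single copies were chosen after seeing the data. The planned comparison of primary with secondary wall CesA genes was not run.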
